A study of Mus musculus with 2 samples.

Results

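The 8 genes described here make, break down or receive prostaglandins, and they were taken by symbol from the 32285 genes of the count tables: Ptgs1, Ptgs2, Ptgds, Ptges, Ptges2, Ptges3, Hpgd and Ptger4. The set was chosen by the UMI counts of Ptgds, which were higher in neurosphere cells, so its difference between the cultures is given as a description. Each gene was found once in both tables.

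The cells were GL261, a mouse glioma line made in C57BL/6 mice and used as a model of glioblastoma, and each culture gave 1 scRNA-Seq library. The adherent cells grew on flasks in DMEM with fetal bovine serum and antibiotics. For the neurosphere cells the same medium also held EGF at 20 ng/ml, FGF at 20 ng/ml and B-27 at a dilution of 1:50, and spheres were collected after 12 days. With 1 library per culture, the effects of culture form, added factors, time and library cannot be told apart, no test between the cultures was possible, and the 95% intervals cover counting error only.

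Prostaglandins are short-lived lipid signals. Phospholipases and related enzymes free arachidonic acid from lipids, the cyclooxygenases turn it into prostaglandin H2, and a terminal synthase then makes the D, E, F or I form or thromboxane. In brain, lipocalin-type prostaglandin D synthase, the product of Ptgds, is known from oligodendrocytes, leptomeninges and choroid plexus, from where it is secreted into the cerebrospinal fluid and also carries small lipophilic molecules. Prostaglandin E2 acts through a small family of receptors, among them the product of Ptger4, and is broken down after uptake by the dehydrogenase that Hpgd encodes.

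Of 5764 adherent and 4951 neurosphere cells in the tables, 5051 and 4276 passed the limits on UMIs (unique molecular identifiers, 1 per captured RNA molecule) and genes when these were applied after mitochondrial and ribosomal genes were removed, and 5073 and 4300 when applied before. The first 2 sets, used throughout, carried 46290996 and 64943938 UMIs, with a median of 8260 UMIs per adherent and 13198.5 UMIs per neurosphere cell. Levels are given as CPM, the UMIs of a gene per 1000000 UMIs of the library, and shares of cells were also taken with each cell thinned at random to 5000 UMIs, which left 4464 adherent and 4196 neurosphere cells. Of the astrocyte and glioma markers, Aqp4 had 0 UMIs in both libraries and Gfap had 30 and 27 UMIs. Of the 8 with at least 50 UMIs, 3 were over 2-fold lower in neurosphere cells, such as Vim (5583 against 1763 CPM). None was over 2-fold higher (1 was, Nes, with mitochondrial and ribosomal UMIs kept), beside 11.7% of all genes lower and 21.7% higher. Within 2-fold, Nes, S100b, Aldoc and Aldh1l1 had positive log2 fold changes (0.95, 0.66, 0.59 and 0.57) and Gfap a negative one (-0.64). The libraries shared 12 cell barcodes, and without the cells that carried them the log2 fold change of Ptgds (7.44 with all kept cells) was 7.43.

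To set the most different and the least different measured member side by side at the DNA level, the bases upstream of Ptgds and Ptges3 are shown. Both come from the RefSeq promoter windows of GRCm38.p6, which take the 250 bases before each RefSeq start, and the bases that GENCODE places in an exon are left out. The Ptgds stretch is chr2:25469843-25469999 on the minus strand, in an intron of a longer Ptgds transcript. The Ptges3 stretch is chr10:128058732-128058953 on the plus strand, outside any exon of the gene. Both read 5′ to 3′, and capitals mark matches to the E-box letters CANNTG.
Ptgds: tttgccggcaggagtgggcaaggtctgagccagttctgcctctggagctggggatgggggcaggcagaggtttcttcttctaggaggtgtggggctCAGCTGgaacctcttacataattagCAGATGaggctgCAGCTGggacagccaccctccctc
Ptges3: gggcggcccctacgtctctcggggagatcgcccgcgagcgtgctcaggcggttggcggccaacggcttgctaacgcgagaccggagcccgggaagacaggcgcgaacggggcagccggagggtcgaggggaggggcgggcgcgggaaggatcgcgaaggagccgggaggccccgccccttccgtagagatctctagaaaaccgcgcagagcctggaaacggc
The Ptgds stretch held 3 E-box matches, which began 154, 129 and 117 bases before the start, and the full window held 1 match to the AP-1 letters TGANTCA, 35 bases before the start. The Ptges3 window held no match to either and 3 matches to the GC box letters GGGCGG. Searched on both strands, 66.2% of 32851 windows held an E-box match, 6.75% an AP-1 match and 32.7% a GC box match. The 2 windows also differed in CpG dinucleotides, with 2 in that of Ptgds and 38 in that of Ptges3, and 18.8% and 98.1% of all windows had fewer. These matches are letters only and say nothing about binding in these cells.

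Among the 8 genes, 4 reached 50 UMIs over both libraries (Ptgds, Ptges, Ptges2 and Ptges3). Ptgds was over 2-fold higher in neurosphere cells, Ptges was over 2-fold lower, and Ptges2 and Ptges3 lay within 2-fold. Of the 14654 genes with at least 50 UMIs, 21.7% were over 2-fold higher and 11.7% over 2-fold lower, with a median log2 fold change of 0.32. As this contrast was used to pick the set, nothing is read from the counts of members.

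**Figure D1:**
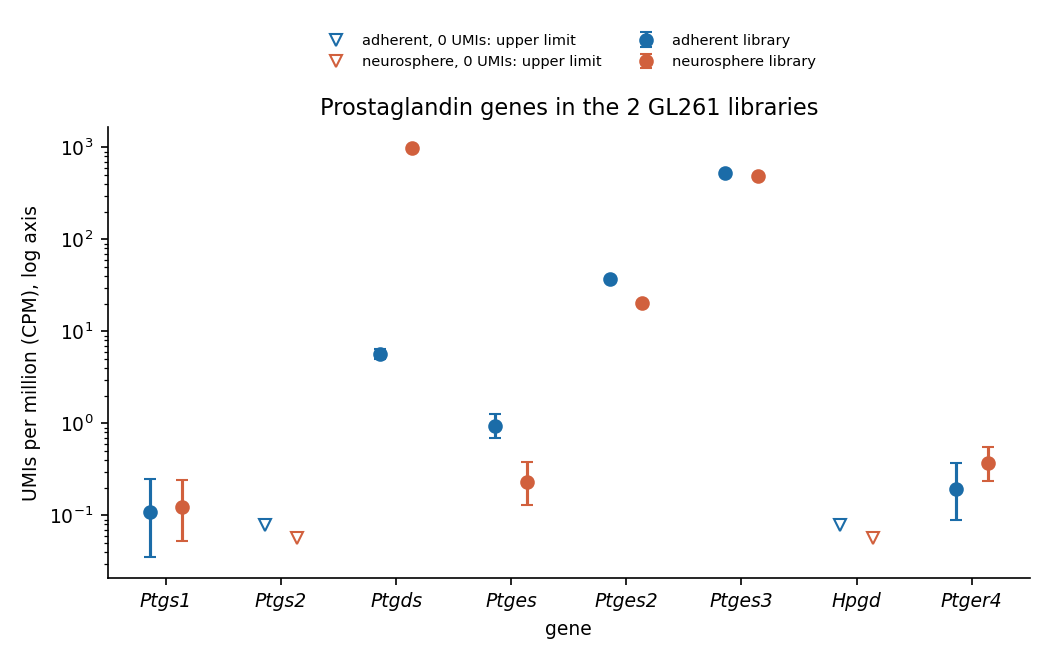
Level of each of the 8 genes in the adherent (blue) and neurosphere (orange) library, as CPM on a log axis with exact Poisson 95% intervals; open triangles are upper limits for genes with 0 UMIs. Ptgds lies at 5.68 CPM (adherent) and 983.4 CPM (neurosphere), while Ptges3 lies at 529.3 and 485.7 CPM; levels should be compared between libraries, not between genes.

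The cyclooxygenases, which carry out the committed step, were at the limit of detection. Ptgs1, the constitutive form (chr2:36230426-36252272, plus strand), had 5 UMIs, each in another adherent cell, and 8 UMIs, each in another neurosphere cell. That is 0.108 CPM (95% interval 0.0351 to 0.252) and 0.123 CPM (0.0532 to 0.243), a log2 fold change of 0.19 with an interval from -1.60 to 2.15. The libraries could not be told apart at this depth. Ptgs2, the inducible form (chr1:150100031-150108227, plus strand), had 0 UMIs in both libraries, also among the cells that did not pass the limits. The exact 95% intervals for a count of 0 reached up to 0.0797 CPM (adherent) and 0.0568 CPM (neurosphere). For the share of cells with a UMI they reached up to 0.0730% and 0.0862%.

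Ptgds (chr2:25466709-25470046, minus strand, with 5 annotated transcripts) had 263 UMIs in the adherent library against 63864 UMIs in the neurosphere one. Its level was 5.68 CPM (5.02 to 6.41) against 983.4 CPM (975.8 to 991.0). The neurosphere level was 173 times the adherent one, a log2 fold change of 7.44 (7.26 to 7.62). Of the 14654 genes with at least 50 UMIs, 86 had a larger log2 fold change, counting those with 0 adherent UMIs.

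Ptgds was found in most neurosphere cells and few adherent ones. A UMI was present in 3.31% of adherent cells (exact binomial interval 2.83 to 3.84) and in 93.6% of neurosphere cells (92.9 to 94.4). At 5000 UMIs per cell the shares were 1.97% (1.58 to 2.42) and 83.7% (82.5 to 84.8). Thinning lowered both shares and kept their order. Neither library held a cell type known to lack Ptgds, so the background from free RNA was not measured.

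Levels varied widely among neurosphere cells. The median cell held 9 Ptgds UMIs, the 10th and 90th percentiles were 1 and 36 UMIs, and the highest cell held 267 UMIs. No UMI was seen in 272 cells, whose median total of 10042 UMIs was below that of all kept cells. At the other end, 37 cells with 100 or more Ptgds UMIs made up 0.865% of cells and held 8.17% of the gene's UMIs. After thinning, the variance of Ptgds over cells was 11.3 times its mean, beside 1.37 times for Ptges3 in the same cells.

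In adherent cells the few Ptgds UMIs were unevenly spread. Of 167 adherent cells with a UMI, 150 held exactly 1, while 5 cells with at least 5 UMIs held 86 UMIs, or 32.7% of the library's total. Ptgds reached 1573 CPM within those 5 cells. S100a4, a calcium-binding protein gene that was lower in neurosphere cells, was found in 60.0% of them against 69.5% of all adherent cells and 2.62% of neurosphere cells. Krt8, a keratin gene that was higher in neurosphere cells, was found in 1 of the 5, against 2.69% of all adherent and 75.3% of neurosphere cells. Ly6a, a surface protein gene that was lower in neurosphere cells, was found in 60.0% of the 5 and 19.1% of all adherent cells. None of the 5 carried a barcode shared with the neurosphere library, and the 10 kept adherent cells that did carry one held 0 Ptgds UMIs. Leaving out the 5 cells, a choice made after seeing the data, moved the log2 fold change to 8.0.

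**Figure D2:**
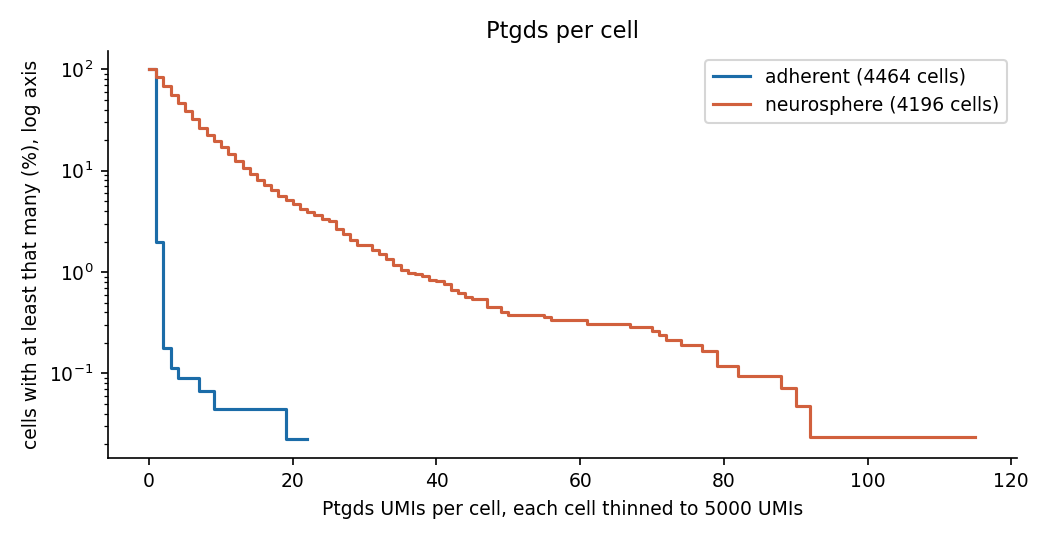
Share of cells (percent, log axis) with at least a given number of Ptgds UMIs, each cell thinned to 5000 UMIs, for 4464 adherent (blue) and 4196 neurosphere (orange) cells. The neurosphere curve starts from 83.7% at 1 UMI and reaches 115 UMIs, and the adherent curve drops to 1.97% at 1 UMI and ends at 22 UMIs.

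Cells left out by the limits also held Ptgds. Among the 675 neurosphere barcodes removed, whose median mitochondrial share was 87.0% of UMIs, 24.6% had a Ptgds UMI and the pooled level was 1596 CPM. Of 713 adherent barcodes removed, 3 had a UMI.

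The prostaglandin E synthases did not share the pattern of Ptgds. Ptges (chr2:30889471-30929863, minus strand), the microsomal synthase that is induced together with Ptgs2 in inflammation, had 44 UMIs in 43 adherent cells against 15 UMIs in 10 neurosphere cells. Its level was 0.951 CPM (0.691 to 1.28) against 0.231 CPM (0.129 to 0.381). The adherent level was 4.12 times higher, a log2 fold change of -2.04 (-2.99 to -1.17). A neurosphere cell alone held 5 of the 15 UMIs. After thinning, the shares with a UMI were 0.448% (adherent) and 0.143% (neurosphere), and the binomial intervals (0.274 to 0.691 and 0.0525 to 0.311) overlapped.

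Ptges2 (chr2:32395896-32405772, plus strand), a membrane-associated synthase found in many tissues, had 1701 and 1321 UMIs. Its level was 36.7 CPM (35.0 to 38.5) against 20.3 CPM (19.3 to 21.5), and the log2 fold change was -0.85 (-0.96 to -0.75). In adherent cells 27.6% held a UMI and in neurosphere cells 24.3%, and at 5000 UMIs per cell these shares were 17.1% and 9.20%. The shares thus lay farther apart at equal depth. The log2 fold change of Ptges2 passed 2-fold under another scaling, -1.07 with TMM factors and -1.10 with median-of-ratios size factors.

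Ptges3 (chr10:128058954-128077272, plus strand) encodes p23, which is both a cytosolic prostaglandin E synthase and a partner of the chaperone Hsp90. It had 24502 and 31545 UMIs, or 529.3 CPM (522.7 to 536.0) against 485.7 CPM (480.4 to 491.1). The log2 fold change of -0.12 (-0.15 to -0.10) was smaller than the shift between scalings, and it turned to 0.095 when mitochondrial and ribosomal UMIs were kept in the total. Of the adherent cells 96.2% held a Ptges3 UMI and of the neurosphere cells 94.9%, or 91.4% and 84.6% after thinning. Of the 13 other Hsp90 genes and cochaperones, all with at least 50 UMIs, 12 lay within 2-fold and Hsp90aa1, the inducible Hsp90, was lower in neurosphere cells (2797 against 1073 CPM), beside 11.7% of all genes lower. Their median log2 fold change was -0.32, beside 0.32 over all genes. The 2 medians were -0.10 and 0.54 with mitochondrial and ribosomal UMIs kept, and -0.54 and 0.11 with TMM factors, under which 2 of the 13 were lower.

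Breakdown and reception of prostaglandins were represented by very few molecules. Hpgd (chr8:56294585-56321043, plus strand) had 0 UMIs in both libraries, with the same upper limits as Ptgs2. Ptger4 (chr15:5206661-5244187, minus strand), the EP4 receptor, had 9 UMIs in 9 adherent cells against 24 UMIs in 23 neurosphere cells. Its level was 0.194 CPM (0.0889 to 0.369) against 0.370 CPM (0.237 to 0.550), and the interval of the log2 fold change of 0.93 ran from -0.23 to 2.22. After thinning, which left 1 and 9 cells with a UMI, the log2 fold change was 3.26. The gene overlaps Ttc33 on the opposite strand, which had 2114 and 5748 UMIs. As the strand setting of the counting is not given in the sources used here, reads of the 2 genes may not be fully separated.

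The neurosphere cells fell into 10 clusters when grouped without the 8 genes and the pathway genes. Ptgds was present in each of them. A Ptgds UMI was found in 91.7% to 95.6% of the cells of each cluster, and the level ran from 712.0 CPM in cluster 1 to 1880 CPM in cluster 6, a ratio of 2.64. The clusters with the highest Ptgds level, 6 and 0 (1725 CPM), were led by Ifit3 and Zbp1, which respond to interferon, and by Comp and Pdzd2. The level was lowest in clusters 1, 5 (718.9 CPM) and 4 (745.9 CPM), led by Depdc1b and Aspm, by Rrm2 and Ccne2, and by Steap3 and Fbn2. Cluster 8, also led by genes of DNA replication such as Cdc6 and Ccne2, was at 1311 CPM.

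Ptges3 followed another order across the same clusters. It was lowest in cluster 0, at 251.5 CPM, and highest in clusters 4 and 5, at 605.3 and 604.1 CPM, whose intervals overlapped. Ptges2 ran from 12.9 CPM in cluster 0 to 26.9 CPM in cluster 4. Of the 15 Ptges UMIs in neurosphere cells, 7 lay in cluster 6, which included the cell with 5. Depth moved with these orders: the median cell held 7673 UMIs in cluster 0 and 21017 UMIs in cluster 4, and its part in them was not tested. From the shallowest 1069 to the deepest 1069 neurosphere cells, Ptgds went from 1507 to 799.9 CPM and Ptges3 from 338.7 to 534.6 CPM. In the adherent library Ptges3 went the other way, from 569.5 CPM in the shallowest 1263 cells to 492.5 CPM in the deepest 1262 cells.

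**Figure D3:**
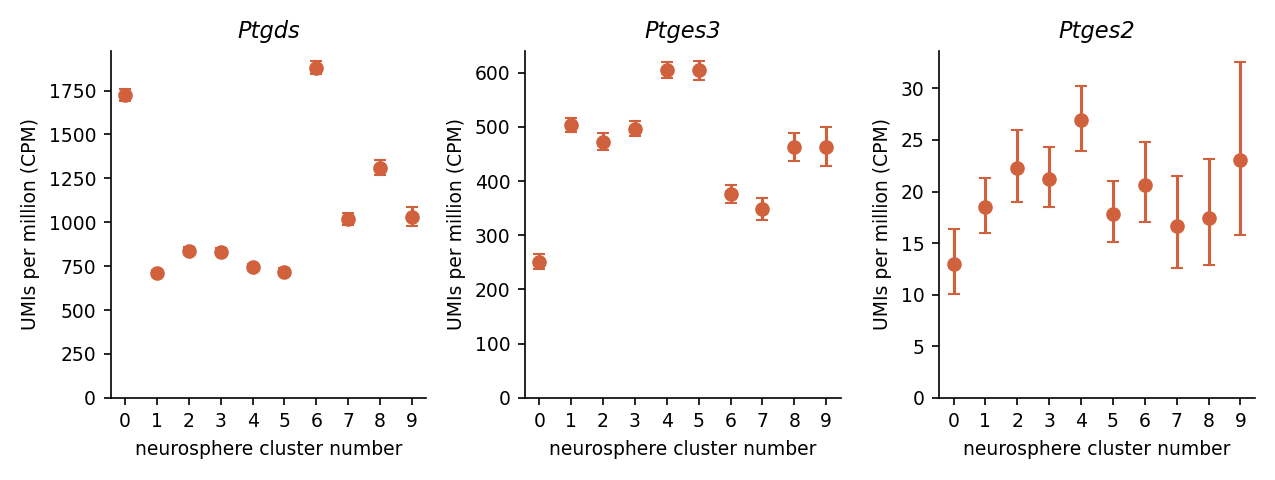
Level of Ptgds, Ptges3 and Ptges2 (CPM, exact Poisson 95% intervals) in the 10 clusters of neurosphere cells, by cluster number. Ptgds is highest in clusters 6 and 0, where it reaches 1880 and 1725 CPM, while Ptges3 is lowest in cluster 0 at 251.5 CPM.

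Of the 11 adherent clusters, 1 of 48 cells had 0 Ptgds UMIs, too few cells to set a level. The others ran from 2.55 CPM in cluster 6 to 12.1 CPM in cluster 1, where 54 UMIs lay in 3.68% of the cells. In cluster 1, 30 of these UMIs came from 2 cells, and without them its level was 5.41 CPM. All of these cluster levels were under the lowest neurosphere cluster. Ptges3 ran from 359.8 to 620.6 CPM over the adherent clusters, a ratio of 1.72.

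Cells were also split by Top2a, a gene of dividing cells, at 5000 UMIs per cell. Neurosphere cells with a Top2a UMI held a mean of 4.30 Ptgds UMIs and those without held 6.49, and 80.9% and 85.9% had a Ptgds UMI. For Ptges3 the order was the other way, with means of 2.62 and 1.98 UMIs. Neurosphere cells with a Krt8 UMI held a mean of 6.04 Ptgds UMIs against 4.50 in those without. These are differences among cells of 1 library and were not tested.

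Cells that held 2 of the synthases at once were counted after thinning. Of 4196 neurosphere cells, 313 held both Ptgds and Ptges2, and the product of the separate shares gives 322.9. In adherent cells 19 held both, beside 15.0. With shares of 83.7% and 84.6%, Ptgds and Ptges3 were each in too many neurosphere cells for their joint count to be read. Cyclooxygenase UMIs were too few for such a comparison, since only 2 thinned neurosphere cells held Ptgs1, and both also held Ptgds.

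The genes whose level per cell went most closely with Ptgds over the 4276 neurosphere cells were Gpnmb, B2m, Cd63, Cpe and Cd81, with Pearson r of 0.38, 0.32, 0.32, 0.31 and 0.31 on log-scaled values. Gpnmb encodes a membrane glycoprotein, B2m the light chain of MHC class I, Cd63 and Cd81 tetraspanins and Cpe a carboxypeptidase. They came from 10859 genes with a UMI in at least 5% of the cells, over which the median r was -0.011. These 5 also led after thinning, with r between 0.25 and 0.33, and by Spearman's rho 4 of them stood in the first 5, with Psap in the place of Cpe. Among them only Cd81 was itself over 2-fold higher in neurosphere cells, with a log2 fold change of 5.60. Of other genes that like Ptgds were low in adherent cells, Krt8 and Matn1 each had r of 0.22, Wnt6 had 0.19 and Dll3 had -0.11. Ptges3 had r of -0.22, and Ptges2 -0.039. All cells share 1 library and differ in depth, so these values are descriptions.

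Of 69 further genes of the pathway, 68 were found and 38 had at least 50 UMIs. Among the 38, 10 had over 2-fold more CPM in the neurosphere library and 9 over 2-fold less, or 26.3% and 23.7% beside the 21.7% and 11.7% of all genes. Their median log2 fold change was -0.17 beside 0.32 over all genes. With mitochondrial and ribosomal UMIs kept, 12 were higher and 7 lower and the medians were 0.052 and 0.54. With TMM factors, 9 were higher and 12 lower and the medians were -0.38 and 0.11. The genes are given by their role.

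Of the 17 measured genes that can free arachidonic acid, 6 were higher and 3 lower, beside 21.7% and 11.7% of all genes. Mgll, which encodes the main lipase that yields arachidonic acid from 2-arachidonoylglycerol in brain, was at 0.281 against 32.5 CPM, with a log2 fold change of 6.85 (6.08 to 7.77). The share of cells with a UMI was 0.238% against 25.6%. Plaat3 (30.3 against 85.8 CPM) and Abhd12 (34.0 against 71.4 CPM), a phospholipase and another lipase of the same lipid, were also higher, though Abhd12 came within 2-fold with TMM or median-of-ratios factors. Pla2g2f (0.108 against 0.831 CPM), Pla2g4c (0.324 against 2.12 CPM) and Pla2g5 (0.734 against 2.09 CPM) were higher too, at low counts. Pla2g12a, a secreted phospholipase, was lower in neurosphere cells (171.0 against 83.8 CPM), as were Pla2g1b (2.94 against 0.785 CPM) and Dagla (1.94 against 0.816 CPM). With mitochondrial and ribosomal UMIs kept, Pla2g12a came within 2-fold and Daglb passed it, so that 7 were higher and 2 lower. Pla2g4a, the cytosolic phospholipase most tied to prostaglandin production, had 12 and 7 UMIs.

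Among 9 other measured terminal enzymes, 2 were higher and 3 lower, beside 21.7% and 11.7% of all genes. With mitochondrial and ribosomal UMIs kept, 3 were higher and 2 lower, and with TMM factors 2 were higher and 4 lower. Tbxas1, thromboxane synthase, was at 2.12 against 13.3 CPM, and cluster 9 of the neurosphere cells held it at 122.4 CPM against at most 18.4 CPM in any other cluster. Hpgds, the other prostaglandin D synthase, was at 0.713 against 2.28 CPM, a log2 fold change of 1.68 (1.12 to 2.27). Of the aldo-keto reductases, some of which make the F form, the 3 Akr1b genes were lower in neurosphere cells, with Akr1b3 at 303.9 against 133.4 CPM, Akr1b8 at 78.6 against 20.4 CPM and Akr1b7 at 1.43 against 0.400 CPM. Akr1b3 came within 2-fold with mitochondrial and ribosomal UMIs kept.

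Downstream of synthesis, Ptgr1, a reductase that inactivates prostaglandins, lay within 2-fold (55.9 against 29.6 CPM) but was over 2-fold lower with TMM or median-of-ratios factors. Of 3 measured transporters, 1 was over 2-fold higher (Slco2b1, 2 and 57 UMIs) and none lower, beside 21.7% and 11.7% of all genes. Abcc1, an export pump, lay within 2-fold (18.8 against 13.1 CPM). None of 10 other receptors reached 50 UMIs over both libraries. Ptgdr and Ptgdr2, the receptors for prostaglandin D2, had no adherent UMI, and in neurosphere cells they had 0 and 1. The highest counts were those of Ptger1 (4 and 35 UMIs) and Tbxa2r (15 and 20 UMIs).

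The lipoxygenase and leukotriene genes belong to branches that use the same arachidonic acid. Of the 5 measured, 3 were over 2-fold lower in neurosphere cells and none over 2-fold higher, beside 11.7% and 21.7% of all genes. With TMM or median-of-ratios factors 4 were lower. Lta4h, the hydrolase that makes leukotriene B4 and the one of the 5 with the most UMIs, was at 43.2 against 62.8 CPM. Alox5ap, the partner protein of 5-lipoxygenase, had 188 adherent and 15 neurosphere UMIs, and the log2 fold change was -4.14 (-5.00 to -3.38). Ltb4r1, a leukotriene B4 receptor, and Alox12, a lipoxygenase, had log2 fold changes of -4.09 and -3.95. Alox5 itself had 1 and 4 UMIs.

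**Figure D4:**
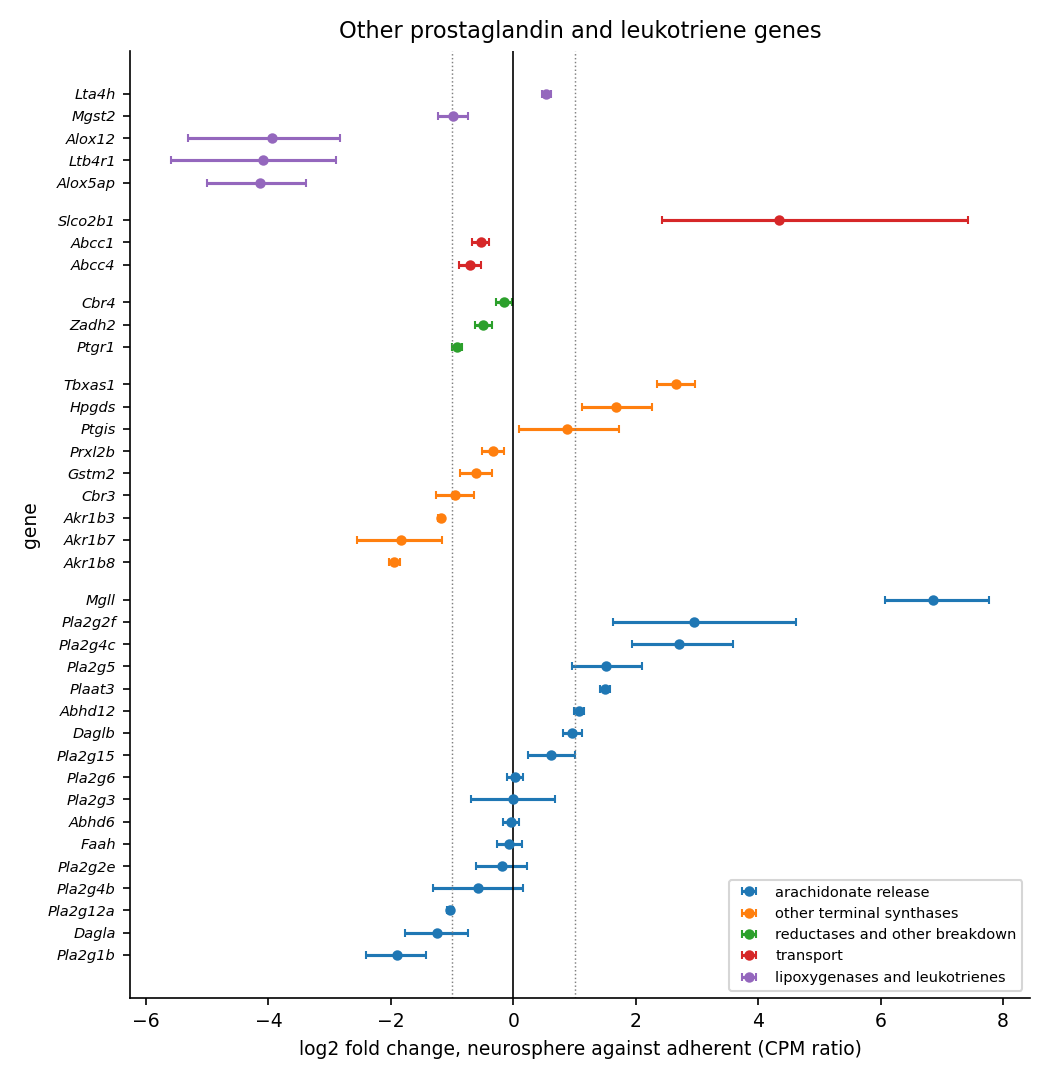
Log2 fold change (neurosphere against adherent CPM) with exact conditional 95% intervals for further pathway genes with at least 50 UMIs, coloured by role; dotted lines mark 2-fold. Mgll stands farthest to the right at 6.85, and 3 of the lipoxygenase and leukotriene genes lie at -3.95 or lower.

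Ptgds belongs to the lipocalins, small secreted carriers of lipids. Of 19 other lipocalin genes found, 9 had 0 UMIs in both libraries and 3 had at least 50 UMIs. Of these 3, 1 was over 2-fold higher and none lower, beside 21.7% and 11.7% of all genes. Apod, apolipoprotein D, was higher in neurosphere cells, at 1.25 against 13.0 CPM, a log2 fold change of 3.37 (2.99 to 3.78). Lcn2 was at 10.4 against 15.2 CPM, and C8g at 1.99 against 1.76 CPM.

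The genes around Ptgds did not share its difference. Of 31 other genes in the tables that start within 200 kb of the Ptgds start, 18 had at least 50 UMIs, and their median log2 fold change was 0.49 beside 0.32 over all genes. Among them were Dpp7 and Npdc1, which were over 2-fold higher with log2 fold changes of 1.79 and 1.08, and Entpd2, Grin1 and Edf1, which were over 2-fold lower with -4.33, -1.21 and -1.15, beside 21.7% of all genes higher and 11.7% lower. Npdc1 came within 2-fold with TMM or median-of-ratios factors, and Grin1 and Edf1 with mitochondrial and ribosomal UMIs kept, where 5 of the 18 were over 2-fold higher and 1 lower. The nearest measured gene, Paxx, starts 8952 bases downstream and had a log2 fold change of 0.71. Lcn12, a lipocalin gene on the upstream side, had 0 and 2 UMIs.

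**Figure D5:**
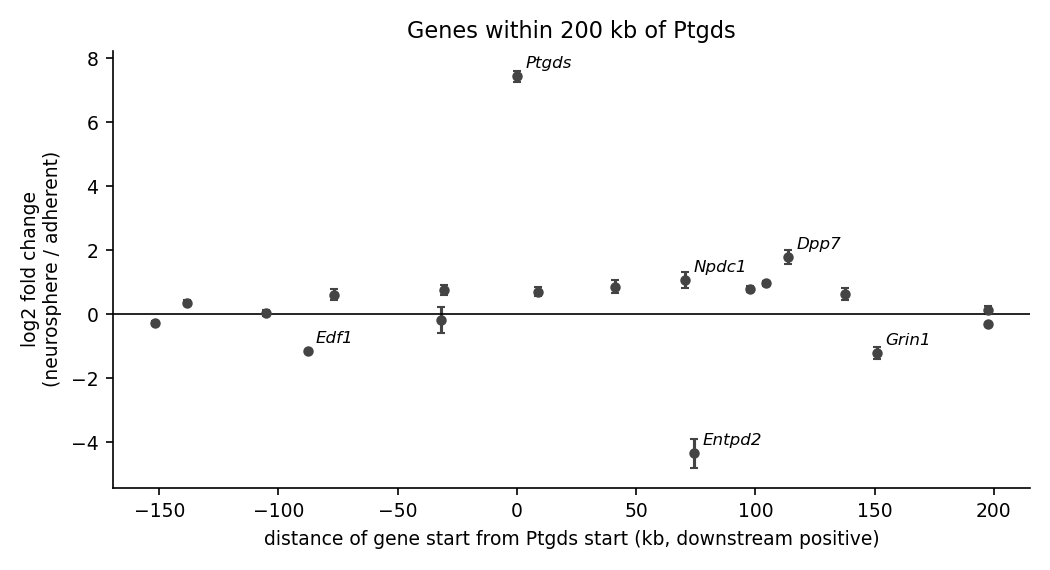
Log2 fold change (neurosphere against adherent CPM, exact conditional 95% intervals) of Ptgds and of the genes with at least 50 UMIs that start within 200 kb of it, by distance of their start from the Ptgds start in kb. Ptgds stands at 7.44, and Dpp7, the next highest, at 1.79.

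Markers of the cell types known for Ptgds were compared alongside, and their counts past 2-fold stand beside 21.7% of all genes higher and 11.7% lower. The summed level of 6 oligodendrocyte markers was 394.3 CPM in the adherent library against 1089 CPM. Of the 5 with at least 50 UMIs, 4 were over 2-fold higher, among them Mag (0.0432 against 2.97 CPM), Mog (0.324 against 11.7 CPM) and Cnp (20.1 against 520.0 CPM), while Mbp was lower (254.7 against 123.5 CPM; within 2-fold with mitochondrial and ribosomal UMIs kept) and Mobp had 3 UMIs in each library. The summed level of 6 leptomeningeal fibroblast markers was 7.26 against 399.0 CPM, mostly from Col1a1 (2.51 against 329.0 CPM) and Dcn (1 UMI against 3606). Of the 5 with at least 50 UMIs, 4 were over 2-fold higher and Slc6a13 was lower (0.842 against 0.277 CPM). The remaining marker, Col1a2, had 1 and 23 UMIs. Both sums thus moved in the same direction as Ptgds between the libraries, though not every marker did, and their part in its difference was not tested. The highest Ptgds levels were in neurosphere clusters 6, 0, 8, 9 and 7, at 1880, 1725, 1311, 1031 and 1017 CPM. In that order Col1a1 was at 240.6, 448.8, 342.7, 95.8 and 134.8 CPM. Over the same clusters Dcn was at 14.3, 87.7, 42.9, 48.2 and 135.4 CPM, and Cnp at 333.7, 828.7, 401.2, 414.7 and 1208 CPM.

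The choroid plexus and immune markers stayed low, and their counts past 2-fold stand beside 21.7% of all genes higher and 11.7% lower. Of 5 choroid plexus markers, the sum was 1.25 against 0.878 CPM, and Ttr, the defining one, had 0 and 24 UMIs. Only Folr1 had at least 50 UMIs over both libraries, and it was over 2-fold lower in neurosphere cells (43 and 7 UMIs). Of 8 immune markers, the sum was 18.3 against 9.21 CPM, with 1 and 0 UMIs of Ptprc and none of Tyrobp. Of the 4 with at least 50 UMIs, 1 was over 2-fold higher (Hpgds, 33 and 148 UMIs) and 2 were lower (Cd68, 485 and 276 UMIs, and Cd74, 219 and 59 UMIs).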

How the data were processed

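For each culture the authors deposited a table of raw UMI counts per gene and called cell, not normalized. The submitters' processing notes name Cell Ranger 7.0.1 and mm10. The annotation release and the settings for introns and strand are not given in the sources used here. The 13 mitochondrial and 101 ribosomal genes were removed. Cells with under 1000 UMIs, or with under 1250 (adherent) or 2250 (neurosphere) genes, were left out, which kept 5051 and 4276 cells. Filtering cells first kept 5073 and 4300 cells. No doublets were removed.

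UMIs were summed per library and given as CPM, with exact 95% intervals (Poisson for levels, binomial for shares of cells, and conditional on the summed count for fold changes) in Python 3.11.15 with scipy 1.17.1. They cover counting error only. Thinning drew 5000 UMIs per cell. Clusters came from Seurat 5.3.0 under R 4.3.3 (resolution 1.0), without the list genes. TMM factors came from edgeR 4.0.16. The scripts were tested on simulated data. Gene positions are those of GENCODE M21 (GRCm38), where 32158 of 32285 gene identifiers were found. Upstream bases are RefSeq's (GRCm38.p6).

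Members and lists were chosen with earlier results of these data known. Named in the text are all 8 members, pathway genes over 2-fold different (otherwise the most abundant of a role), the 5 genes closest to Ptgds per cell and genes near it. Receptors, lipocalins, markers, genes that lead clusters or high cells, Krt8, S100a4, Matn1, Wnt6, Dll3, Ly6a, Top2a, Ttc33, Psap and genes with few UMIs were named outside that rule. Some items are not reported here.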

Additional observations from a re-analysis of the deposited data

How the results depend on the processing

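No paired analysis was possible because each culture gave 1 library. The log2 fold change of Ptgds was 7.65 with mitochondrial and ribosomal UMIs kept in the total, 7.22 with TMM factors, 7.19 with median-of-ratios size factors and 8.0 without the 5 adherent cells with at least 5 Ptgds UMIs, an alternative added after seeing the data. That of Ptges3 turned to 0.095 with mitochondrial and ribosomal UMIs kept. The members over 2-fold lower numbered 2 with TMM factors and 2 with median-of-ratios size factors, where Ptges2 joined Ptges, and 0 after thinning, which left 27 Ptges UMIs, under the minimum of 50. These scalings shift every gene alike: of all genes past 2-fold, 65.0% were higher in the values reported, 75.9% with mitochondrial and ribosomal UMIs kept (4325 higher, 1375 lower), 52.5% with TMM factors (2354 and 2128) and 50.6% with median-of-ratios size factors (2261 and 2207). With no minimum beyond 1 UMI, 6763 genes were higher and 4506 lower. The ratio of the highest to the lowest neurosphere cluster for Ptgds was 3.06 with another random seed. The adherent ratio for Ptges2 had no value, since its lowest cluster had 0 UMIs. Leaving out a replicate was not possible. That of Ptger4 went from 0.93 to 3.26 after thinning, which left 1 and 9 UMIs. Depth limits Ptgs1, Ptgs2, Hpgd and Ptger4.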
